A study of Sus scrofa with 12 samples.

Results

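The regions described here are intergenic stretches of the pig genome at which C/EBP-β chromatin immunoprecipitation (ChIP) of endometrium, the lining of the uterus, gave a peak summit in every library of the study. They are called constant intergenic regions below. Summits of the 6 lists on chromosomes 1 to 18 and X were joined where neighbouring ones lay within 200 bp, which gave 98994 regions. Of these, 2701 (2.73%) held a summit in all 6 libraries. A region counted as intergenic when its midpoint lay outside every protein-coding gene and more than 2 kb from every protein-coding gene end, and 35271 regions were intergenic. The constant intergenic regions number 802, which is 2.27% of the intergenic ones. Of the other constant regions, 1051 were next to a gene end and 848 inside genes. The regions were selected on the presence of a deposited summit in every list and on position, so neither is a finding.

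The tissue came from pigs on day 15 and day 12 of pregnancy, and both groups are pregnant animals with no treatment or genetic change named in the labels. By their labels, each day has 3 libraries made with the same antibody against C/EBP-β, which is the transcription factor encoded by CEBPB. Input samples, 3 per day, were not used. Whether the replicates are different animals is not in the labels, and p-values therefore cover the variation among these libraries alone, technical variation included. Because whole tissue was used, more cells with binding and stronger binding per cell cannot be told apart. Expression was not measured, so the labelled tissue was not checked against marker genes.

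C/EBP-β belongs to the basic leucine zipper family, whose members bind DNA as dimers, and it acts both at promoters and at distant enhancers. In the uterus it is known from the mouse for its role in the stroma's response to progesterone around implantation, and in many tissues it takes part in acute-phase, cytokine and stress responses. Distant sites of such factors are commonly assigned to the nearest gene, although an enhancer need not act on it. No genome sequence was used here, so the regions are given by position alone, on the build susScr11 (Sscrofa11.1).

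The lists differ widely in length, with 70105, 16519 and 11954 summits in day 15 replicates 1 to 3 and 6556, 33274 and 57694 in day 12 replicates 1 to 3. Depth is unknown, because read counts are not in the files. By their peak names the libraries fall into 2 processing sets. Set A (names with a directory path) holds day 15 replicates 2 and 3 and day 12 replicate 1, and set B holds day 15 replicate 1 and day 12 replicates 2 and 3. Every list of set A is shorter than every list of set B, so set and list length cannot be told apart. The peak names of day 15 replicates 2 and 3 have 1 sample code in common, and those of day 15 replicate 3 do not mention the protein. The antibody of day 15 replicate 3 therefore rests on the labels alone, and whether these libraries are independent samples is not known. Without day 15 replicate 3, 1127 intergenic regions were constant. Without day 12 replicate 1, the shortest list, 1285 were.

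Most constant intergenic regions were compact. Each of the 802 regions held exactly 1 summit of every library, which is no special trait of them. A single summit per listing library was also found in 99.7% of constant regions next to gene ends and 100% of those inside genes. For intergenic regions of 5 libraries it was 99.5%. The span from the first to the last of the 6 summits had a median of 59 bp (quartiles 34 and 99 bp), and it was at most 50 bp in 338 regions (42.1%). Constant regions next to gene ends were wider, with a median of 116 bp, while those inside genes had a median of 55 bp. The typical distance of a library's summit from the middle of its region was 7 bp in day 15 replicate 1, 15.5 bp in day 15 replicate 2 and 12.5 bp in day 15 replicate 3. On day 12 it was 10.5, 8 and 7.5 bp in replicates 1 to 3. Between pairs of libraries the median offset ran from 14 to 27 bp within days and from 13 to 25 bp between days. Spans and offsets are limited by the joining of summits within 200 bp, which leaves out sites whose summits lie far apart. They therefore cannot show whether summits move with the day.

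The score that the authors deposited is on a −log10 scale (of p or of q, not stated which), and it grows with sequencing depth. It was therefore used only to order regions within a library. The median score of the 802 regions was 93.1, 16.2 and 12.0 in day 15 replicates 1 to 3 and 12.9, 24.6 and 37.0 in day 12 replicates 1 to 3. The remaining intergenic summits had medians of 8.08, 5.91 and 5.43 on day 15 and 7.31, 6.41 and 6.85 on day 12. A region that reaches 6 lists is likely to score high in each, so this gap is a description of the choice. Even so, some members barely passed, with lowest scores of 1.48 in day 15 replicate 3 and 1.79 in day 12 replicate 2. Among the 100 highest-scoring intergenic summits of a list, 91, 93 and 91 lay in constant regions on day 15 and 95, 86 and 71 on day 12.

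Regions on either side of the gene distance limit had similar ranks, while those short of the library limit had lower scores. The 27 constant regions 2 to 2.5 kb from a gene end had a median rank percentile of 57.3, and the 20 that lay 1.5 to 2 kb away, outside genes, had 55.9. Here and below, a rank percentile gives the place of a region among the 2701 constant regions of a library, with 100 for the highest score. A further 964 intergenic regions had a summit in 5 libraries. The missing one was day 12 replicate 1 in 484 of them, day 15 replicate 3 in 325 and day 15 replicate 2 in 116. These are the lists of set A, which are also the shortest. In the libraries that listed them, their median scores were 50.2, 8.58 and 7.15 in day 15 replicates 1 to 3 and 8.10, 12.1 and 21.4 in day 12 replicates 1 to 3, below the medians of the 802 regions in each library.

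Constant intergenic regions lay closer to genes than intergenic regions seen in 1 library. Their median distance to a protein-coding gene end was 29.8 kb (quartiles 9.41 and 104 kb), against 42.0 kb for the 18092 regions of 1 library and 35.5 kb for those of 5 libraries. Between 2 and 5 kb from a gene end lay 117 regions (14.6%), against 9.11% of the regions of 1 library. Far sites were present too, with 173 regions at 100 to 500 kb (21.6%) and 32 beyond 500 kb (3.99%, against 3.95% of the regions of 1 library). Rank hardly followed distance over the 802 regions (Spearman's rho -0.03, a description over sites that share their libraries). It fell with the width of a region, since regions of at most 25 bp had a median rank of 71.1 and those over 100 bp of 40.6 (rho -0.41 over the 802 regions).

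**Figure D1:**
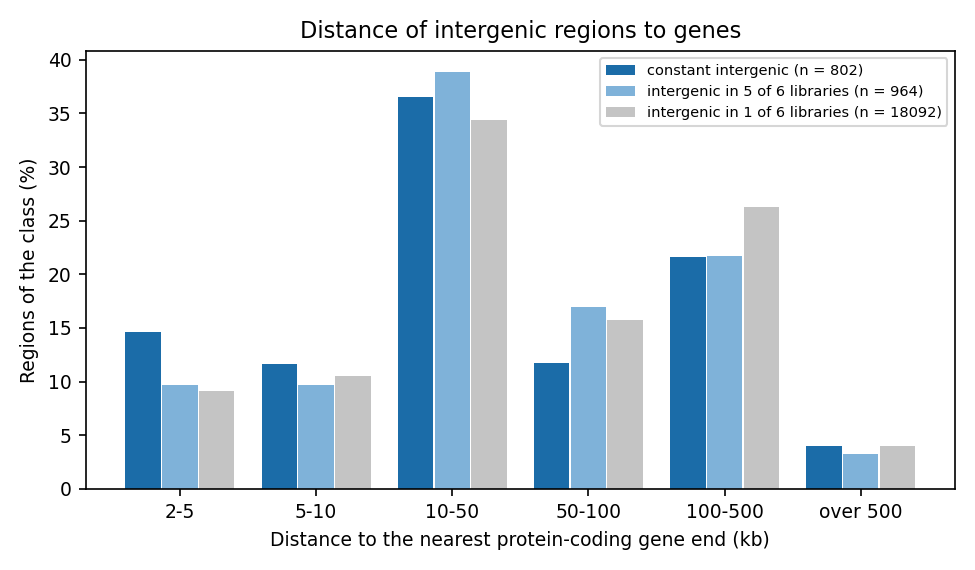
Share of regions (y axis, %) by distance to the nearest protein-coding gene end (x axis, kb) for constant intergenic regions and for intergenic regions of 5 libraries and of 1 library. Constant regions make up more of the 2 to 5 kb class (14.6%, against 9.11% for 1 library) and less of the 100 to 500 kb class.

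**Figure D2:**
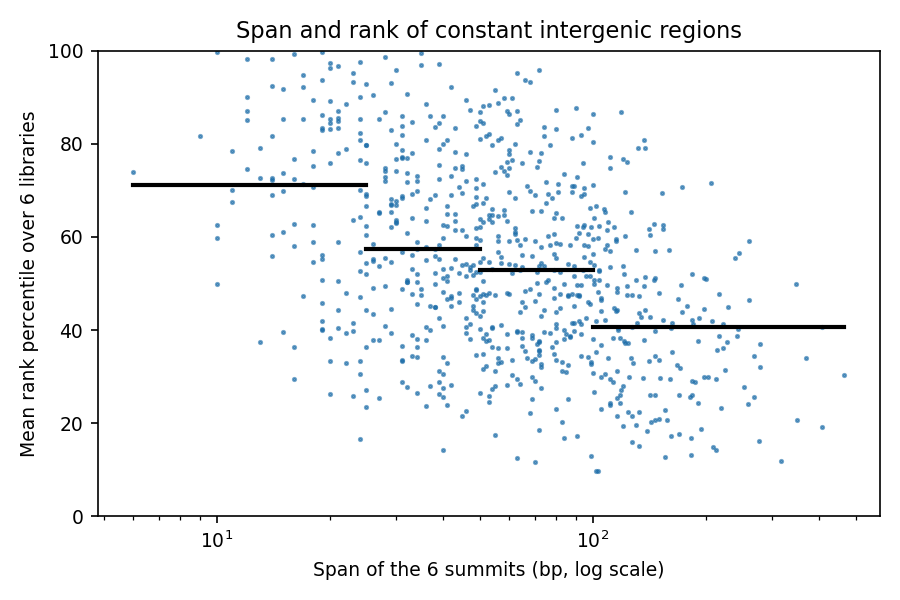
Each point is 1 of the 802 regions, with the span of its 6 summits (x axis, bp, log scale) against its mean rank percentile over the 6 libraries (y axis). Black lines are medians of span classes, and they fall from 71.1 at up to 25 bp to 40.6 above 100 bp.

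The highest-ranked regions stood near the top in all 6 libraries. The first lies on chromosome 3 at 39056935 to 39056945, 9.99 kb from the uncharacterised gene LOC100627836 and 56 bp from a transfer RNA (tRNA) gene for proline. Its rank was 99.3 or higher in each library. Next came a region on chromosome 14 at 2386669 to 2386688, 11.8 kb from AUH, which encodes an enzyme of leucine breakdown, with a lowest rank of 99.3. A region 208 kb from TRIB2, the gene of a Tribbles pseudokinase (chromosome 3, 124404105 to 124404140), ranked between 98.2 and 99.9. The region 153 kb from PPP1R3B, a glycogen-targeting phosphatase subunit (chromosome 15, 55849401 to 55849417), ranked from 97.3 upwards. In deposited score it reached 497, 147 and 60.4 in day 15 replicates 1 to 3 and 102, 127 and 160 in day 12 replicates 1 to 3. The scores differed widely between libraries, whereas the rank did not. These regions were chosen by their mean rank over the same 6 libraries, so high ranks in each are a description of the choice.

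Other regions of this group stood nearer to genes. RPS6KA2, a ribosomal S6 kinase gene, had its region 3.46 kb away (mean rank 98.6), and MARC1, which encodes a mitochondrial reductase, 19.4 kb away (98.3). MRS2 encodes the magnesium channel of mitochondria and lay 11.01 kb from a region with mean rank 98.2. The MAP kinase phosphatase gene DUSP16 lay 21.3 kb from one with 97.5, and the forkhead factor gene FOXQ1 12.2 kb from one with 97.4. LOC100739755 (18.3 kb, mean rank 97.1), ABCG1, a cholesterol exporter (14.4 kb, 97.0), and TEX36 (56.8 kb, 96.8) complete the 12 highest. The spans of these 12 regions were all below 40 bp.

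The regions farthest from any protein-coding gene did not stand at the top. The farthest lay 1671 kb from NCAM2, a neural adhesion gene, on chromosome 13 at 187350869 to 187350905, and had a mean rank of 40.6. It ranked 8.77, 4.87 and 39.7 in day 15 replicates 1 to 3 and 47.6, 85.3 and 57.2 in day 12 replicates 1 to 3, without overlap between days. Regions 1069 kb from SLC10A2, 1066 kb from BCL11B, 1049 kb from AMY2, 1040 kb from KLHL29 and 1011 kb from LOC102165146 had mean ranks of 55.8, 51.6, 37.6, 36.4 and 34.5. Non-coding genes can be closer, since the KLHL29 region lies inside a lncRNA gene and the NCAM2 region 6.51 kb from one. Ranks of the SLC10A2 and BCL11B regions overlapped between days, at 31.04 to 80.2 on day 15 against 24.9 to 84.7 on day 12 for SLC10A2.

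A group of constant intergenic regions lay directly beside tRNA genes, which are short genes transcribed by RNA polymerase III. Within 200 bp of an annotated tRNA gene lay 28 of the 802 regions (3.49%, 95% exact Clopper-Pearson interval 2.33% to 5.01%), and 1 more lay 256 bp away. The same held for 1.56% of the intergenic regions of 5 libraries (0.873% to 2.55%), 0.822% of those of 4 and 0.193% of those of 1 library (0.135% to 0.269%). Constant regions next to protein-coding gene ends had 2.38% and those inside genes 0.354%. These intervals cover counting error only, and regions in clusters of tRNA genes are not independent. The count was chosen after the annotation of the regions was seen and was not tested. It was 28 to 35, or 2.66% to 3.77% of the regions, with any 1 library left out, and 11 of 370 (2.97%) with lists shortened to equal length.

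**Figure D3:**
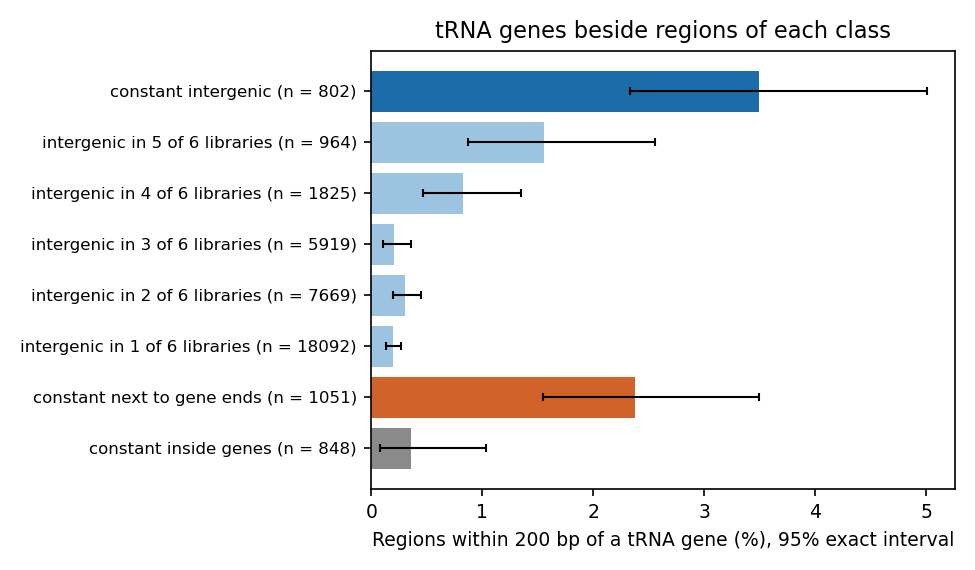
Share of regions within 200 bp of a tRNA gene (x axis, %, bars with 95% exact intervals) for constant intergenic regions, for intergenic regions by number of libraries and for the other constant regions. The share is 3.49% for constant intergenic regions and 0.193% for intergenic regions of 1 library.

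The 29 regions within 2 kb of a tRNA gene were spread over 8 chromosomes, with 7 on chromosome 7 and 6 on chromosome 4, and their median distance to the tRNA gene was 41 bp. They covered many anticodons, among them TRNAI-UAU (isoleucine; chromosome 3, 97567620 to 97567670, mean rank 84.9), TRNAH-GUG (histidine, 80.9) and TRNAR-UCU (arginine, 80.8). Near-identical copies of tRNA genes exist in the genome, and how the authors treated reads that map to several of them is not given in the sources used here. On chromosome 4, 3 of these regions lay within 6.58 kb near FCGR3A, an Fc receptor gene, and HSPA6, a heat shock gene, beside tRNA genes for asparagine, aspartate and glycine, with mean ranks of 55.6, 54.3 and 49.9. Each library had a summit within 200 bp of many of the 448 tRNA genes on these chromosomes, namely 156, 118 and 104 in day 15 replicates 1 to 3 and 98, 106 and 150 in day 12 replicates 1 to 3.

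Regions beside tRNA genes ranked higher on day 15 than on day 12. Constant regions next to protein-coding gene ends did so on average, and the other constant intergenic regions ranked lower on average, both with overlap between days. The median rank of the tRNA-linked regions was 50.1, 70.0 and 59.2 in day 15 replicates 1 to 3, against 45.1, 24.0 and 46.0 in day 12 replicates 1 to 3, so the days did not overlap. The mean of the medians was 59.8 ± 9.92 on day 15 and 38.4 ± 12.4 on day 12 (SD, n = 3 libraries each). The other 773 constant intergenic regions had 60.5, 44.5 and 46.7 on day 15 and 58.2, 62.5 and 59.5 on day 12. Within set A the tRNA-linked regions were higher on day 15 by 19.5 percentile points and within set B by 15.1, while the other intergenic regions differed by -12.7 and -0.52. Constant regions next to gene ends averaged 49.98 ± 13.9 on day 15 and 34.8 ± 4.64 on day 12 (SD of the library medians, n = 3 each), with differences of 19.2 within set A and 1.11 within set B. Their median was 34.0 in day 15 replicate 1, below the 38.8 and 36.0 of day 12 replicates 1 and 3. Of the 29, 25 had a higher mean rank on day 15, against 263 of the other 773 constant intergenic regions (34.0%). In 9 of the 29 the days did not overlap, all 9 higher on day 15. Among all constant regions 6.29% were higher without overlap and 6.07% lower. The 29 regions were picked out after the values were known, so this stands as a description with no test. Ranks of the 25 constant regions next to gene ends that lay within 200 bp of a tRNA gene are not given here.

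Long non-coding RNA (lncRNA) genes held a similar share of intergenic regions whatever the number of libraries. The share of constant ones inside an annotated lncRNA gene was 17.8% (143 regions), against 18.98% of the intergenic regions of 1 library and 22.1% of those of 5. Some 207 regions (25.8%) lay inside or within 2 kb of a non-coding gene or pseudogene of any kind (95% exact interval 22.8% to 29.0%), against 22.8% for 1 library. With these non-coding genes treated like protein-coding ones, 595 regions remained intergenic.

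Immediate early genes were the gene list with the most constant intergenic regions nearby. Of 19484 protein-coding genes, 5.29% had an end within 50 kb of such a region and 3.6% were the nearest gene of one. Among AP-1 and immediate early genes, which encode factors and phosphatases switched on within minutes of a stimulus, 9 of 24 (37.5%) had a region within 50 kb and 10 of 24 (41.7%) were the nearest gene of one. The intergenic regions of 5 libraries lay within 50 kb of 5 of the 24 (20.8%), against 5.32% of all genes. Regions of 1 library lay within 50 kb of 21 of them (87.5%), against 47.2% of all genes, so the list was above the share of all genes for each of these kinds of region. The count of 9 was 9 or 10 with any 1 library left out, 6 with a score of at least 5 and 5 with lists of equal length, where 2.36% of all genes had a region that near.

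The nearest member of that list was DUSP1, a MAP kinase phosphatase gene, with a region 4.81 kb from its end (chromosome 16, 51453058 to 51453178). The region ranked 95.4, 80.1 and 55.0 in day 15 replicates 1 to 3 and 77.7, 66.9 and 85.9 in day 12 replicates 1 to 3, with overlap between days. DUSP5, a phosphatase that acts on ERK, had one at 5.16 kb (chromosome 14, 120901142 to 120901225). It ranked 11.9, 0.907 and 24.1 on day 15, against 47.6, 61.4 and 40.8 on day 12, all 3 lower on day 15. ATF3, a stress-induced bZIP factor gene, showed the opposite order at a region 5.65 kb away (chromosome 9, 130835264 to 130835392), with 21.7, 54.3 and 81.8 on day 15 and 9.68, 19.8 and 11.01 on day 12. FOSB (5.9 kb), JUND (7.0 kb), FOS (14.9 kb), KLF6 (16.3 kb), JUN (32.7 kb) and IER3 (33.0 kb) make up the rest of the 9. Except for JUND, these were named to complete the count, after their values were seen. The region counted for FOSB lay nearer to RTN2 (5.43 kb). Ranks of the FOS and IER3 regions overlapped between days, at 65.6 to 94.7 on day 15 against 74.9 to 90.7 on day 12 for FOS and at 71.3 to 89.9 on day 15 against 81.4 to 84.8 on day 12 for IER3. The KLF6 region ranked 70.1, 86.2 and 78.9 in day 15 replicates 1 to 3 and 8.50, 65.9 and 65.3 in day 12 replicates 1 to 3, higher on day 15 without overlap.

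NF-κB and interleukin 1 signalling genes had 6 of 19 members within 50 kb of a constant intergenic region (31.6%), against 5.29% of all genes. Regions of 1 library lay that near to 68.4% of the 19, against 47.2% of all genes. BCL3, an atypical IκB protein gene, lay 5.39 kb from its region, TLR4, the endotoxin receptor gene, 11.8 kb and TLR2 21.2 kb. NFKBIZ (22.1 kb), IL1R2 (22.8 kb) and NFKBIA (30.98 kb) complete the 6 and were added after their values were seen. The regions counted for TLR2 and NFKBIZ lay nearer to other genes, namely LOC100627016 (4.75 kb) and NXPE3 (3.58 kb). Of the 17 cell cycle genes, 3 (17.6%) had a region within reach. They were the antiproliferative genes BTG1 (2.78 kb) and BTG2 (11.9 kb) and the CDK inhibitor gene CDKN1B (2.99 kb). The BTG2 region ranked 98.9, 95.6 and 84.5 in day 15 replicates 1 to 3 and 94.2, 99.1 and 99.4 in day 12 replicates 1 to 3. For IL6, JAK and STAT signalling the count was 3 of 23 (13.0%), with CISH, a feedback inhibitor of STAT5, 8.63 kb away. The cytokine genes OSM and LIF shared 1 region, at 9.84 kb and 17.2 kb, with CASTOR1 nearer (5.23 kb). Regions of 1 library lay within 50 kb of 58.8% of the cell cycle genes and 60.9% of the IL6, JAK and STAT genes.

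Lists tied to uterine function lay closer to the share of all genes, although for part of them this rests on the requirement of 6 libraries. With regions of 5 libraries the shares were 17.1% for growth factor genes, 14.7% for attachment and matrix, 19.05% for lipid, 16.7% for unfolded protein and amino acid stress and 11.11% for prostaglandin genes, against 5.32% of all genes and 10.5% of the NF-κB and interleukin 1 genes. Other lists stayed near the share of all genes or below it. They had 0% for uterine secretion, 3.33% for interferon response, 5.26% for angiogenesis and hypoxia and 6.67% for lysophospholipid signalling genes. Steroid receptor and hormone metabolism genes had 1 of 28 (3.57%), which was ESR1, the estrogen receptor α gene, whereas intergenic regions of 5 libraries lay within 50 kb of 7 of the 28 (25%). Its region lay 3.41 kb from a gene end on chromosome 1 at 14608282 to 14608342, and ranked 87.6, 89.2 and 77.8 in day 15 replicates 1 to 3 and 87.8, 90.9 and 85.5 in day 12 replicates 1 to 3. Prostaglandin genes had 1 of 18, PTGS2 (cyclooxygenase 2), at just under 50 kb. Growth factor genes had 3 of 35 (SMAD3, IGFBP2 and FGF9), and attachment and matrix genes 3 of 34 (COL3A1, COL1A1 and MUC1). COL3A1, a fibrillar collagen gene of the stroma, had a region 9.10 kb away with mean rank 87.1. The regions counted for COL3A1, COL1A1 and MUC1 lay nearer to other genes, namely COL5A2 (7.08 kb), PPP1R9B (4.48 kb) and EFNA1 (3.77 kb). Uterine secretion genes had 1 of 26 (ACP5, which encodes uteroferrin in the pig), interferon response genes 1 of 30 (IRF2) and unfolded protein and amino acid stress genes 1 of 24 (PDIA4). Lysophospholipid signalling had 1 of 15 (SGPL1), angiogenesis and hypoxia 1 of 19 (KDR) and lipid genes 1 of 21 (SCD).

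No member of the C/EBP family (0 of 7) or of the stromal and decidual regulators (0 of 24) had a constant intergenic region within 50 kb, where 5.29% of all genes did, a share at which lists this short hold few members or none. Regions of 5 libraries lay that near to 1 of the 7 (14.3%) and 4 of the 24 (16.7%). CEBPB itself was the nearest gene of a region 90.4 kb away, which ranked 52.8, 39.9 and 41.4 in day 15 replicates 1 to 3 and 11.4, 40.8 and 44.2 in day 12 replicates 1 to 3. Among markers of single cell types, the counts were 0 of 16 for epithelium, 1 of 9 for endothelium (CDH5, 3.99 kb, mean rank 89.3), 2 of 17 for myeloid and lymphoid cells (ITGAM and CSF3R) and 2 of 10 for smooth muscle (CNN1 and SRF). The CNN1 region is the one also counted for ACP5. The SRF region lay 46.1 kb from SRF, with DNPH1 nearer (2.39 kb). Housekeeping genes had 2 of 19 (YWHAZ and EEF1A1), and neuronal genes, a control list, 0 of 18. Gene lists were compared with all genes by their shares alone, and how much intergenic space surrounds each gene was not taken into account.

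Constant intergenic regions were about as far apart as constant regions inside genes. The median distance to the next one was 583 kb, and 109 of the 802 (13.6%) had another within 50 kb. The 848 constant regions inside genes had a median of 549 kb and 12.9%, the 1051 next to gene ends 305 kb and 17.6% and the 964 intergenic regions of 5 libraries 516 kb and 19.2%, each within its own class, and spacing depends on their number. They had 702 different nearest genes, of which 84 were the nearest for more than 1 region and 15 for 3 or more. KLF6, an immediate early zinc finger gene, was the nearest for 4 regions, 16.3 to 261 kb away. DUSP6, BTG2, GLI3, KLF4 and PIK3R1 were among those with 3, and they were named after the counts were seen. The densest groups held 3 regions in 50 kb. Of 6 such groups, the 4 with the highest mean rank are described first. One covered 9.02 kb beside IRF2BPL (chromosome 7, 100127036 to 100136091), with mean ranks of 85.9, 40.3 and 83.6. Another spanned 24.8 kb near ERGIC1 and DUSP1, with mean ranks of 86.3, 25.9 and 76.9. A further group lay 4.68 to 34.6 kb from IRF2, an interferon regulatory factor gene, with 61.5, 53.0 and 58.4. The fourth is the tRNA-linked group near HSPA6. The other two lie near HS1BP3 (chromosome 3, 117652485 to 117670104), with mean ranks of 21.5, 52.5 and 55.9, and beside tRNA genes near BTN1A1, HMGN4 and ABT1 (chromosome 7, 20989291 to 21031906), with 16.2, 44.3 and 53.5.

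Compared with constant regions next to gene ends, the intergenic ones ranked higher in 4 of 6 libraries and lower in the other two. The median rank of intergenic regions was 60.01, 45.7 and 47.4 in day 15 replicates 1 to 3, against 34.0, 58.4 and 57.6 for regions next to gene ends. On day 12 intergenic regions had 57.4, 61.4 and 58.9, against 38.8, 29.7 and 36.0. The mean gap over the 6 libraries was 12.7 ± 19.2 percentile points (SD, n = 6; two-sided exact sign-flip permutation p = 0.156, Benjamini-Hochberg adjusted over 2 comparisons 0.156). With lists of equal length it was -1.15. Against constant regions inside genes the gap was small, at 2.44 ± 1.43 points, and positive in 6 of 6 libraries (exact sign-flip permutation p = 0.0312, the smallest 6 libraries can give, adjusted 0.0625). With a score of at least 5 that gap was 1.55 and positive in 4 of 6 libraries. It turned to -1.16 with lists of equal length.

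**Figure D4:**
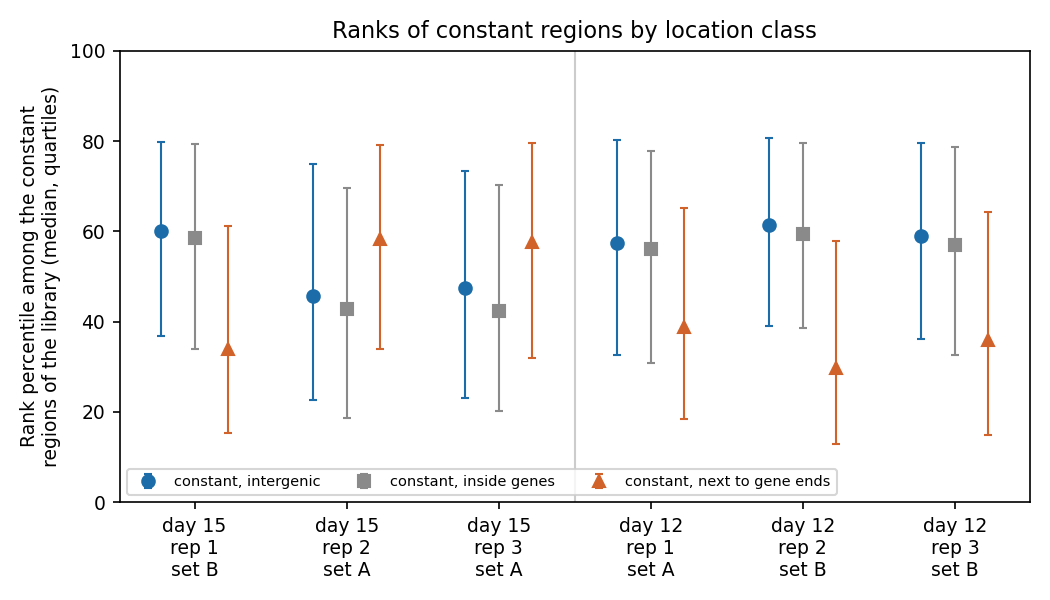
Rank percentile among the 2701 constant regions (y axis; markers are medians, bars quartiles) in each library (x axis, with its processing set) for the 3 location classes. Intergenic regions and regions inside genes move together, above regions next to gene ends in day 15 replicate 1 and the day 12 libraries and below them in day 15 replicates 2 and 3.

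The gap was smaller on day 15 than on day 12, but the difference was not beyond the spread between libraries. The gap to gene ends was 26.0, -12.7 and -10.3 points in day 15 replicates 1 to 3 and 18.6, 31.7 and 22.9 in day 12 replicates 1 to 3. The mean was 1.04 ± 21.7 on day 15 and 24.4 ± 6.66 on day 12 (SD, n = 3 each), a difference of -23.4 points (exact permutation test, two-sided, p = 0.3; 0.1 is the lowest value that 3 libraries per day allow). Within set A the difference was -30.1 points and within set B -1.26 (p = 0.222 when days were permuted exactly within each set, with 0.111 as the lowest value this allows). It grew to -36.3 without day 15 replicate 1 (exact permutation p = 0.1), when all remaining day 15 libraries belonged to set A.

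Region by region, no constant intergenic region passed the test for a rank difference between days. A linear model of rank-based normal scores was fitted with limma over all 2701 constant regions. It called 0 of the 802 at a Benjamini-Hochberg adjusted p under 0.05 and 0 of the 2701 (0%). In a simulation with 200 of 2701 regions shifted, it called 0 of the shifted ones at a shift of 1 normal-score unit. At shifts of 2 and 4 it called 127 and 190 of the 200, with 3 and 14 false calls. Differences between days of 1 normal-score unit, and some of 2 units or more, could therefore have been missed. At an unadjusted p under 0.05, 17 of the 802 (2.12%) were higher and 47 (5.86%) lower on day 15, whereas 4.96% of all constant regions were higher and 4.81% lower. Without day 15 replicate 1, all remaining day 15 libraries belonged to set A, so day and set were mixed. The fit without it called 29 of 811 intergenic regions, 5 higher (0.617%) and 24 lower (2.96%) on day 15. In that fit 150 of 2747 constant regions were called, 3.06% higher and 2.4% lower. In 48 regions (5.99%) the 3 day 15 ranks lay above all 3 day 12 ranks, and in 58 (7.23%) below them. Over all constant regions these shares were 6.29% and 6.07%. The median difference in mean rank, day 15 minus day 12, was -5.95 points for intergenic regions, against 9.86 for regions next to gene ends and -5.88 for those inside genes.

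The regions with the widest separation are therefore descriptions. The largest fall in mean rank was 20.6 kb from ATP1B3, a sodium pump subunit gene (chromosome 13, 82659859 to 82659919), with 31.8, 6.70 and 10.4 in day 15 replicates 1 to 3 and 75.5, 75.1 and 86.6 in day 12 replicates 1 to 3. In limma it differed by -1.90 normal-score units (SE 0.44, adjusted p = 0.493). A region 147 kb from DDHD1, a phospholipase gene, ranked 32.7, 25.6 and 61.6 on day 15 and 98.8, 96.6 and 90.4 on day 12. The others that were lowest on day 15 lay 30.7 kb from LOC110255889, 52.7 kb from SKAP2 and 199 kb from LOC110256820. Higher on day 15 were a region 214 kb from COX7C, with 74.8, 76.1 and 82.2 against 32.6, 5.61 and 56.6 on day 12, and one 190 kb from PAPPA. That 7.01 kb from JUND ranked 33.4, 54.9 and 83.0 on day 15 and 14.6, 7.90 and 20.6 on day 12. The remaining 2, near HMGN4 and LOC100627836, both lay beside tRNA genes.

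**Figure D5:**
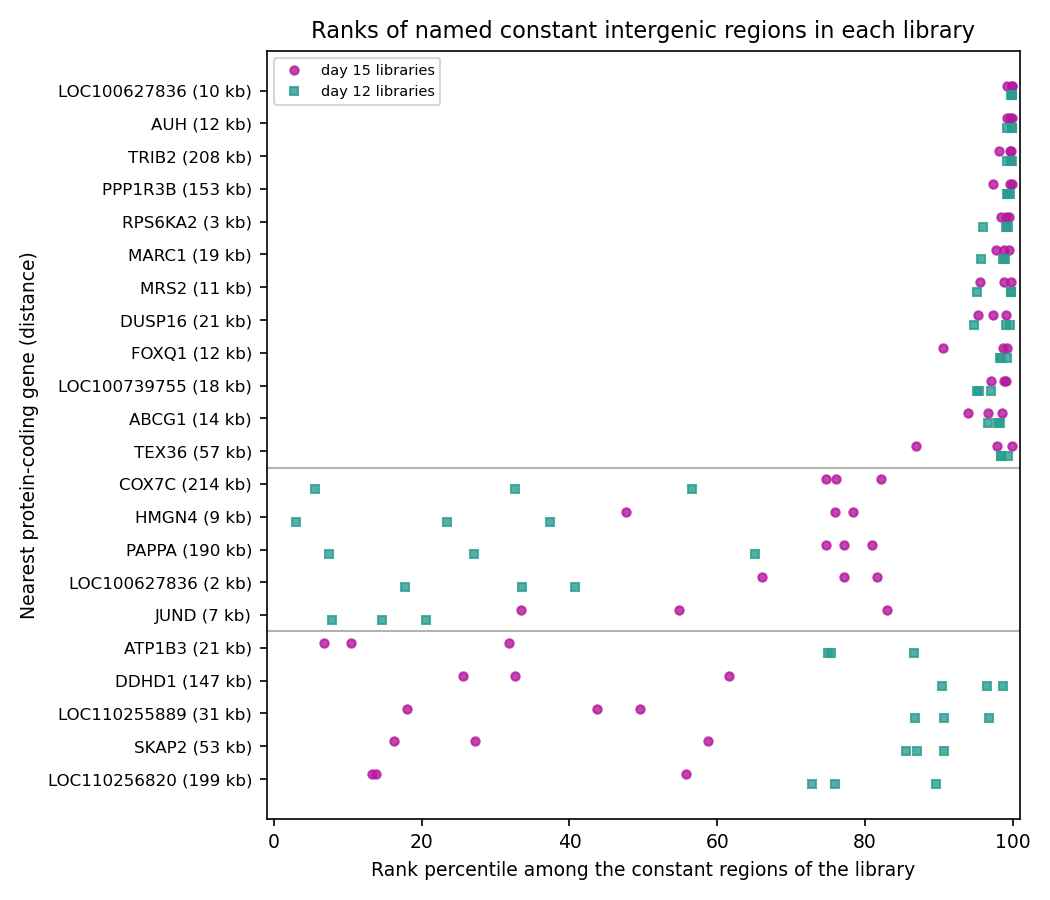
Rank percentile among the constant regions (x axis) in each library, with day 15 as circles and day 12 as squares, for regions named by their nearest protein-coding gene and its distance (y axis). The 12 highest-ranked regions stand above the first line, and below it are 5 regions that were higher and 5 that were lower on day 15 without overlap.

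Libraries of the same processing set ordered the constant intergenic regions more alike than libraries of different sets. Over the 802 regions, Spearman's rho between pairs of libraries averaged 0.602 within sets (6 pairs, 0.427 to 0.798) and 0.382 between sets (9 pairs, 0.122 to 0.645). Pairs of the same day averaged 0.502 and pairs of different days 0.449. The closest pair was day 15 replicate 1 and day 12 replicate 3 (0.798), both of set B, and the least alike was day 15 replicate 3 and day 12 replicate 3 (0.122). These correlations are across regions of shared libraries and are given with no test. Set A also holds the shorter lists, so likeness by set and likeness by list length cannot be told apart.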

How the data were processed

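Per the labels, endometrial chromatin was fixed, sonicated and immunoprecipitated. The submitters' processing notes name Bowtie2 2.3.5.1, SAMtools 1.9, MACS2 2.1.2 and the build susScr11. How peaks were thresholded, whether inputs served as controls and how duplicates were handled is not given in the sources used here. The files the authors deposited hold 1 bp summits, each with a −log10 score (p or q is not stated). Coordinates count from 1.

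Gene positions are from RefSeq's table of Sscrofa11.1, without strand. Planned motif counts need a genome and were not run. Regions and ranks were computed with Python 3.11.15 and limma 3.58.1 (R 4.3.3), and tested on simulated data. There the test between days called 0 of 200 shifts of 1 normal-score unit. A region's score was that of its summit in the library. Members and lists were chosen with earlier results of these data known. Of 469 list entries, 453 matched a gene.

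Named genes are the nearest ones of the 12 highest-ranked, the 6 farthest, 5 regions per direction between days and 4 of the 6 equally dense groups (those of highest mean rank), with up to 3 per list. Alternatives concerned joining distance, gene distance, score, list length and left-out libraries.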

Additional observations from a re-analysis of the deposited data

Results flagged for a closer look

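Outside chromosomes 1 to 18 and X, 34 regions on 12 sequences held a summit in all 6 libraries, none of them on chromosome Y. They were looked at because this signal lies in data that the comparisons do not use. They come from 2239 of the 198341 summits, which formed 1196 regions. Gene positions were not assigned there, so none of these regions is counted as intergenic.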

How the results depend on the processing

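Of the 86 alternative values computed, 79 kept their direction and their side of the threshold or stayed within 1.5 times the count. Of these, 4 use the mean score of a region's summits, which is fixed by construction with 1 summit per library, and the comparisons of 3 libraries per day cannot pass, so neither speaks for stability. With every list shortened to its 6556 best summits, 370 intergenic regions were constant, 11 of them within 200 bp of a tRNA gene and 5 AP-1 and immediate early genes within 50 kb, and the rank gaps turned to -1.15 (gene ends) and -1.16 (inside genes). The shorter lists make fewer regions by construction, but the cause of the turned gaps was not tested. Leaving out 1 library gave 808 to 1285 regions and gaps of 10.4 to 14.5 (gene ends) and 2.33 to 3.30 (inside genes). The day difference of the gap was -36.3 to -18.0, and limma called 0 to 29 regions between days. The 29 of 811 came without day 15 replicate 1, when all remaining day 15 libraries belonged to set A. That fit called 150 of 2747 constant regions of every location (84 higher, 66 lower on day 15). With 5 libraries the sign-flip test cannot go below 0.0625.

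Libraries with the same replicate number did not deviate together (correlations of -0.48, -0.13 and -0.39). Each of these pairs joins a library of set A with one of set B. The remaining such pairs between days were negative too (-0.04 and -0.15), while pairs within a set had 0.12 to 0.44. Number and set cannot be separated here, so whether the numbers pair libraries was not tested. With the replicate number as a block the day difference was -23.4 (exact permutation p = 0.5, smallest possible 0.25) and limma called 0 regions, as it did with the processing set as a covariate.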

Other observations

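Genes next to constant intergenic regions had a constant region at their own end about as often as genes in general. Among the 702 nearest genes, 53 (7.55%) also had a constant region within 2 kb of an end, against 6.80% of all 19484 protein-coding genes and 6.53% of the nearest genes of intergenic regions of 1 library. The regions lay on all 19 chromosomes examined. They made up 3.45% of the intergenic regions of chromosome 10 (42 regions) and 3.12% of those of chromosome 18 (23 regions), against 1.39% on chromosome 13 (39 regions) and 1.45% on X (14 regions).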
